A study of Rattus norvegicus with 10 samples.

Results

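A set of 9 genes of ovarian steroid and prolactin action, Esr1, Pgr, Prlr, Wnt4, Tnfsf11, Calcr, Stat5a, Stat5b and Greb1, was followed in mammary tumours of rats whose mothers had eaten different diets. They were chosen by gene symbol, and a probe was matched to 8 of the 9 through its RefSeq transcript, out of 36061 genes and unnamed transcripts on the array. Greb1 had no matched probe and is named only. The first group, written WD1 to WD5, held 5 tumours from daughters of dams on a Western-style diet rich in fat and poor in fibre and oligoelements. The other, written CD1 to CD5, held 5 tumours from daughters of dams on control diet. The dams' diets ran over gestational days 12 to 20 and postnatal days 1 to 21, and both groups of daughters ate control diet once weaned. Every daughter, a Sprague-Dawley female, also had N-methyl-N-nitrosourea at 3 weeks, an alkylating agent injected once at 50 mg/kg, so that no tumour here is free of it, and no normal gland was compared. The tumours, of tubular or papillary form, came from animals labelled as 110 days old, and RNA from each (200 ng) was hybridised to 1 Cy3 array. Nothing in the labels ties the tumours of a group to separate dams or litters, so the p-values below measure the spread between these tumours only.

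In the mammary gland, estradiol binds the estrogen receptor (Esr1) in a part of the luminal cells, and the progesterone receptor (Pgr) is a classical gene induced by it. Progesterone then acts on neighbouring cells through secreted mediators made by receptor-bearing cells, of which Wnt4 and RANK ligand (Tnfsf11) are the best known. Prolactin binds its own receptor (Prlr), which signals through the kinase Jak2 and the transcription factors Stat5a and Stat5b to milk protein genes and secretory differentiation. Calcr, the calcitonin receptor, is induced in luminal cells of the mouse gland in pregnancy, and Greb1 is an estrogen-induced cofactor of the estrogen receptor.

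The promoters of the 2 receptor genes in which the letters of a STAT5 motif were found are shown here, as the prolactin receptor signals through STAT5 and both receptors were among those measured. RefSeq start sites of the GRCr8 assembly gave windows of 300 bases, 250 before and 50 after the start, for 8 of the 9 genes, 9 windows in all because Prlr has 2 starts. The 250 bases before the start are printed for Esr1 (chr1:43641845-43642094, plus strand) and for the second start of Prlr (chr2:60909409-60909658, plus strand), with motif letters in capitals.
Esr1: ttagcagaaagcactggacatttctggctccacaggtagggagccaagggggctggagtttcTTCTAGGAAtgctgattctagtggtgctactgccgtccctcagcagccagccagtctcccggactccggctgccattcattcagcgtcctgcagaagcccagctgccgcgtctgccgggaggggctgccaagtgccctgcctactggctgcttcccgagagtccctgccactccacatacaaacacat
Prlr: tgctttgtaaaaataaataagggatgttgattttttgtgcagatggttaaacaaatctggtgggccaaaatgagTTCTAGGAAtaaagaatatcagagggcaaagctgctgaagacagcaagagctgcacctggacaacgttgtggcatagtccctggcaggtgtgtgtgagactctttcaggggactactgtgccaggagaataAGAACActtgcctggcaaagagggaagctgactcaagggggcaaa
The motif TTCNNNGAA, which reads the same on both strands, was matched by the same 9 letters, TTCTAGGAA, in both promoters, from -188 to -180 relative to the Esr1 start and from -176 to -168 relative to the Prlr start. Of all 33469 RefSeq windows of this length 8.87% hold that motif. The Prlr window also holds AGAACA, from -45 to -40, which is the progesterone response half-site TGTTCT on the minus strand and overlaps no other motif searched (20.68% of windows hold it on either strand). The full estrogen response element, its half-site GGTCA with the reverse complement after a spacer of 3 bases, was found in 0 of the 9 windows and in 0.03% of all windows. The half-site alone, held by 40.51% of windows, was found in 1 of the 9, that of Stat5a, on the minus strand from -97 to -93. These matches describe letters and are neither binding sites nor causes of any level below.

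All levels are log2 of the background-subtracted spot intensity minus the 75th percentile of the array, so a level of 0 is that percentile. Levels of different probes were not set against each other. Probes entered the comparison if the scanner software marked them as well above background in 5 or more of the 10 tumours, and 16778 genes had such a probe. The 75th percentile of intensity lay between 72.8 and 170 on WD arrays and between 85.0 and 226 on CD arrays, and 16683 to 21904 probes per array were well above background. Pairs of arrays had Pearson correlations of 0.915 to 0.977 over the kept genes.

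Of the 8 genes with a probe, 6 passed the filter on dim probes, and 5 of these, the 3 hormone receptors Esr1, Pgr and Prlr with Wnt4 and Stat5b, had lower levels in WD tumours at an unadjusted p under 0.05 in limma. Of all 16778 genes 7.72% met that same rule in the lower direction. None of the 6 passed at an adjusted p under 0.05 (Benjamini-Hochberg over all genes), nor did any gene of the array (0%), while 15.5% of all genes had an unadjusted p under 0.05 in either direction. Stat5a differed by -0.06 (log2), and Tnfsf11 and Calcr were too dim to be measured. All 6 kept genes had a lower mean in the WD group, beside 48.6% of all genes, and their median difference was -0.77 (log2), beside 0.01 for all genes. Esr1 passed the filter only through the CD group, where it had to be the higher, so its place among these counts was set by the filter. Without it 4 of the other 5 genes were lower at an unadjusted p under 0.05, all 5 had a lower mean, and their median difference was -0.74. The genes are few and share the same arrays.

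**Figure D1:**
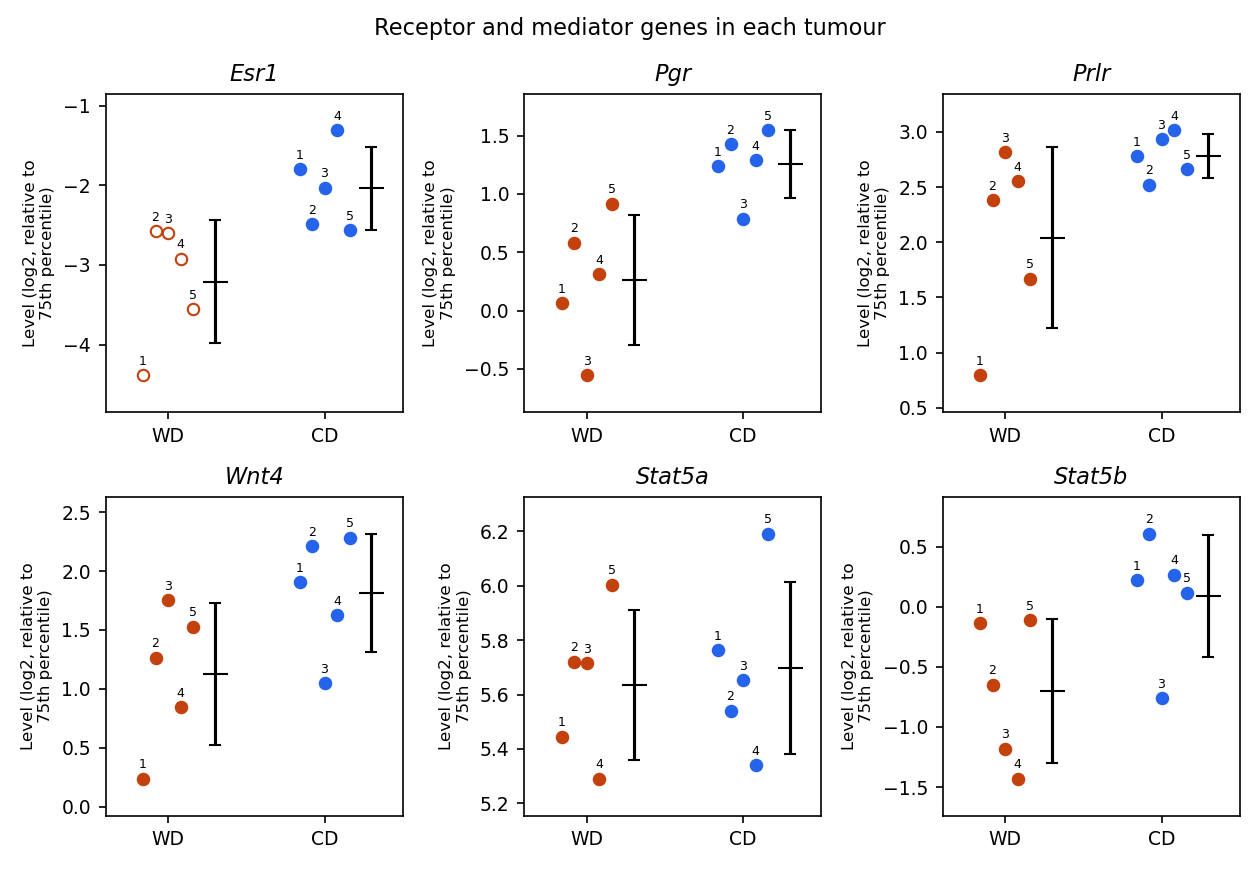
Level (log2, relative to the array's 75th percentile) of the 6 kept genes in each tumour, WD left and CD right, with replicate numbers above the points. Open circles are arrays on which the probe was not well above background, and the bar is the mean ± SD of 5 tumours. For Esr1 all 5 WD points are open and below every CD point, for Pgr 4 WD points lie below every CD point, and for Stat5a the groups lie on top of each other.

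Esr1 (probe A_44_P401615), the estrogen receptor alpha gene, was spotted 10 times per array. Its levels were -4.39, -2.57, -2.60, -2.92 and -3.56 in WD1 to WD5, against -1.80, -2.49, -2.03, -1.31 and -2.57 in CD1 to CD5. All 5 WD tumours lay below all 5 CD tumours, but WD2 and CD5 were equal to 2 decimals. The groups of 3.65% of all genes did not overlap, with WD lower for 2.32%. The probe was well above background on 0 of 5 WD arrays and on 5 of 5 CD arrays, and by single spots on 3 of 50 in WD tumours and 44 of 50 in CD tumours. Spots of a WD array spread by a median SD of 0.67 (log2), against 0.23 on CD arrays. The WD levels therefore have only an upper limit. Each WD array was also raised to the lowest signal of any probe well above background there. Esr1 was then 1.21-fold lower in WD tumours (adjusted p = 0.202 in limma on the measured values). That signal is not the limit of this probe, so the fold is no guaranteed minimum. Esr1 also passed the filter only through the CD group, which set the direction. The measured means were -3.21 ± 0.77 in WD tumours and -2.04 ± 0.52 in CD tumours (SD, n = 5 each). The fitted difference of -1.17 is therefore no size of effect. It was -0.28 with normexp background correction and 75th percentile scaling, and for the authors' deposited table -0.30. In these tumours fewer cells of a type and less RNA per cell cannot be told apart, for this gene as for the others.

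Pgr (A_44_P359587), the progesterone receptor gene, was well above background on all 10 arrays. Its levels were 0.06, 0.58, -0.56, 0.31 and 0.92 in WD1 to WD5, against 1.24, 1.42, 0.79, 1.29 and 1.54 in CD1 to CD5. All 5 WD tumours lay below the CD mean, and the groups overlapped only through WD5, the highest WD tumour, and CD3, the lowest CD tumour. The means were 0.26 ± 0.56 in WD tumours and 1.26 ± 0.29 in CD tumours (SD, n = 5 each), so that Pgr was 1.99-fold lower. The difference of -0.99 (SE 0.26, 95% interval -1.56 to -0.42) had the smallest p of the 6 genes and did not pass the threshold (limma, unadjusted p = 0.0027, adjusted p = 0.181). Within the 3 slides, which held 2 and 1, 2 and 2, and 1 and 2 tumours of the WD and CD groups, it was -1.10, -1.29 and -0.35, and with slide as a block it was -0.97.

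Prlr (A_44_P187181), the prolactin receptor gene, was spotted 10 times per array, and 8 to 10 spots were used once outliers were left out. Their SD on any array was at most 0.082 (log2), and the probe was well above background on all 10 arrays. Its levels were 0.79, 2.38, 2.82, 2.55 and 1.67 in WD1 to WD5, against 2.78, 2.52, 2.93, 3.01 and 2.66 in CD1 to CD5. WD1 and WD5 were low, while WD2, WD3 and WD4 lay at or near the range of the CD tumours. The spread between tumours was 0.82 (SD) in the WD group and 0.20 in the CD group. The means were 2.04 in WD tumours and 2.78 in CD tumours (n = 5 each), a difference of -0.74 (SE 0.34), which is 1.67-fold lower (limma, unadjusted p = 0.0489, adjusted p = 0.320). Without WD1 the difference was -0.43 and without WD5 -0.65, with unadjusted p = 0.0925 and 0.105 in limma. Within slides 1, 2 and 3 it was -0.93, -0.11 and -1.23, where slide 1 holds WD1 and slide 3 holds WD5, and with slide as a block it was -0.67 and no longer under the unadjusted threshold (limma, unadjusted p = 0.0661).

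Wnt4 (A_42_P559414), the secreted mediator of progesterone, had levels of 0.24, 1.26, 1.75, 0.84 and 1.53 in WD1 to WD5, against 1.91, 2.21, 1.05, 1.63 and 2.28 in CD1 to CD5. All 5 WD tumours lay below the CD mean of 1.82, but CD3 lay below 3 of them, so the groups overlapped. The means were 1.12 ± 0.60 in WD tumours and 1.82 ± 0.50 in CD tumours (SD, n = 5 each), which is 1.61-fold lower, and the difference of -0.69 (SE 0.31) was just inside the unadjusted threshold (limma, unadjusted p = 0.0499, adjusted p = 0.322). Within slides 1, 2 and 3 it was -1.46, -0.37 and -0.24, and with slide as a block -0.64, no longer under the unadjusted threshold (limma, unadjusted p = 0.0993). Without WD1 it was -0.47, with an unadjusted p = 0.125 in limma.

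Tnfsf11 (A_43_P13048), which encodes RANK ligand, the other paracrine mediator of progesterone, was well above background on 0 of 10 arrays. Its background-subtracted intensity was 3.9 to 5.7 on WD arrays and 2.9 to 23.5 on CD arrays. Calcr had 2 probes, of which A_43_P12941 was well above background on 1 array, WD5, and A_44_P158758 on 0. Intensities of the first Calcr probe were 4.5 to 21.3 in WD tumours and 2.9 to 12.1 in CD tumours. No fold or direction can be given for either gene, and a transcript below the array's background is not thereby absent.

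Stat5a (A_42_P652586), a transcription factor activated by the prolactin receptor, did not separate the groups. Its levels were 5.44, 5.72, 5.72, 5.29 and 6.0 in WD1 to WD5, against 5.76, 5.54, 5.65, 5.34 and 6.19 in CD1 to CD5. The ranges cover each other almost wholly, and 2 of 5 WD tumours lay below the CD mean. The difference was -0.06 (SE 0.19, limma, adjusted p = 0.901), and its 95% interval, -0.49 to 0.36, leaves room for changes of that size in either direction. The residual spread of Stat5a was smaller than that of the other 5 genes (percentile 38.8 of all kept genes, where the others lay at 68.3 to 87).

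Stat5b (A_43_P12209), the closely related second STAT5 gene, had levels of -0.14, -0.65, -1.18, -1.43 and -0.11 in WD1 to WD5, against 0.22, 0.61, -0.76, 0.27 and 0.12 in CD1 to CD5. All 5 WD tumours lay below the CD mean, and CD3 alone kept the groups from separating. The means were -0.70 ± 0.60 in WD tumours and 0.09 ± 0.51 in CD tumours (SD, n = 5 each), a difference of -0.79 (SE 0.32), which is 1.73-fold lower (limma, unadjusted p = 0.0287, adjusted p = 0.268). Within slides 1, 2 and 3 it was -1.0, -0.99 and -0.35, and with slide as a block -0.81. Whether Stat5a and Stat5b differ from each other in their response was not tested.

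Some of these genes went with the brightness of the arrays, which was lower on average in the WD group. The 75th percentile of intensity was 112, 81.0, 72.8, 98.6 and 170 on WD1 to WD5, against 188, 204, 85.0, 190 and 226 on CD1 to CD5, so that 4 WD arrays and CD3 were dim. On the log2 scale the WD arrays averaged 6.67 ± 0.48 and the CD arrays 7.40 ± 0.57 (SD, n = 5 each; exact two-sided permutation test, p = 0.0714, where the smallest possible is 0.0079). Levels are already relative to this percentile, yet Pgr and Stat5b still followed it over the 10 tumours. For Pgr, Pearson's r was 0.85 (permutation p = 0.00214, adjusted over the 6 genes 0.00642) and Spearman's rho 0.89 (p = 0.00135, adjusted p = 0.0081), and r was 0.83 without the 2 tumours farthest from the median brightness, WD3 and WD2. For Stat5b, r was 0.86 (p = 0.00191, adjusted p = 0.00642, permutation tests), rho 0.84 (p = 0.00365, adjusted p = 0.011), and r 0.83 without the same 2 tumours. With the group means subtracted r was 0.74 for Pgr and 0.78 for Stat5b, so that the relation was also present within groups. The slides hold 3 or 4 arrays each, too few for a value within a slide.

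The other 4 genes followed brightness less closely. For Wnt4, r was 0.60 (permutation p = 0.0675, adjusted p = 0.135, rho 0.60, p = 0.0744, adjusted p = 0.149), and 0.85 without WD3 and WD2. For Stat5a r was 0.29 (p = 0.406, adjusted p = 0.608; rho 0.16), for Esr1 0.21 (p = 0.569, adjusted p = 0.683; rho 0.37) and for Prlr 0.046 (p = 0.906, adjusted p = 0.906; rho 0.0061), by the same permutation tests. CD3, the 1 dim CD array, can be set beside WD2, WD3 and WD4, the dimmest WD arrays. There CD3 was above all 3 for Pgr and Prlr, and inside their range for Stat5a, Stat5b and Wnt4. CD3 was above them for Esr1 too, but Esr1 passed the filter only through the CD group, which set that direction. With 1 CD array this is a description only.

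**Figure D2:**
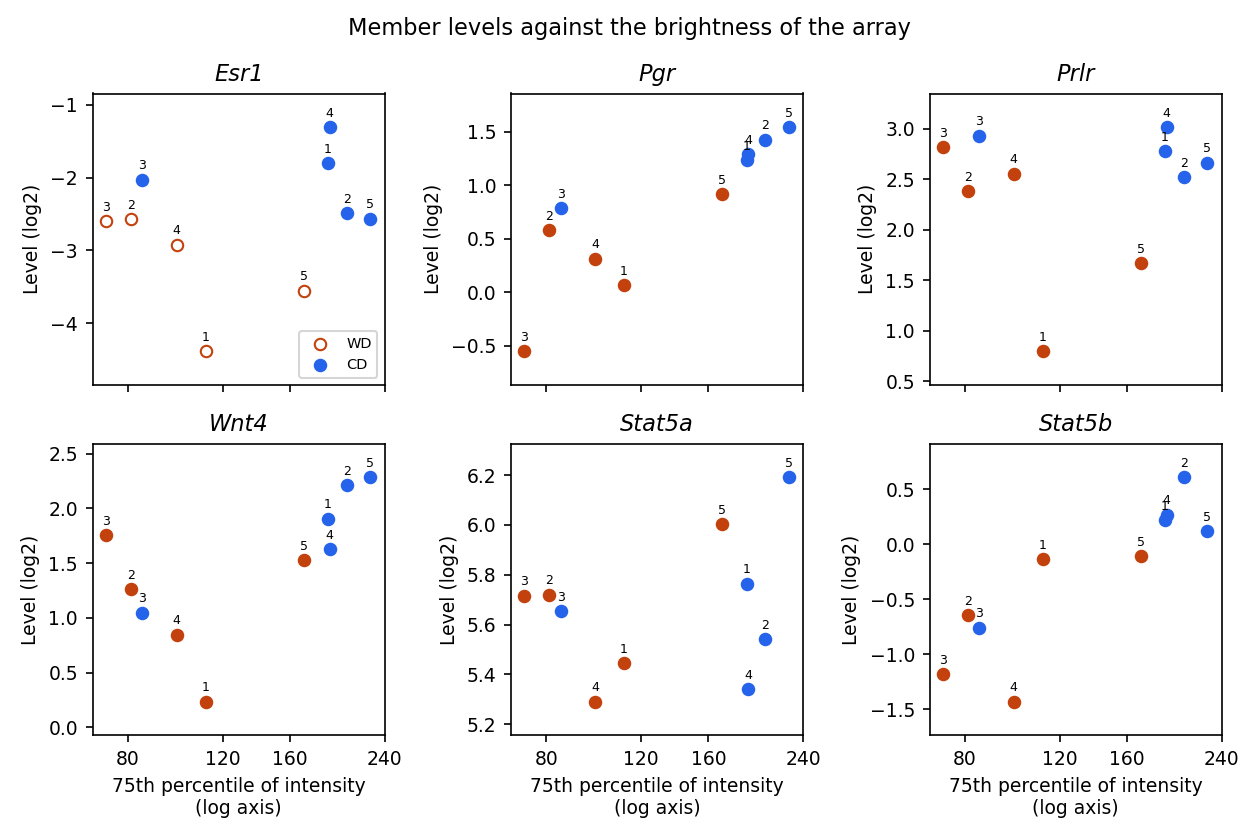
Level (log2) of each kept gene against the 75th percentile of intensity of its array (log axis), with replicate numbers at the points. Orange is WD, blue is CD, and open circles mark arrays on which the probe was not well above background. Pgr and Stat5b climb with brightness in both groups (r of 0.85 and 0.86), while Prlr and Esr1 do not (0.046 and 0.21), and for Prlr WD1 and WD5 are low at middle brightness.

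With array brightness as a covariate in limma, the 6 genes parted. The differences became larger for the receptors Esr1 (-1.55, unadjusted p = 0.0059) and Prlr (-1.13, unadjusted p = 0.0166). They became smaller for Pgr (-0.53, unadjusted p = 0.0614), Wnt4 (-0.39, unadjusted p = 0.336) and Stat5b (-0.19, unadjusted p = 0.528), while Stat5a was at 0.06. No adjusted p in limma was under 0.856. In that fit 5 of the 6 genes were lower, beside 52.6% of all genes, and 2 of the 6 were lower at an unadjusted p under 0.05, beside 2.97% of all genes. The Esr1 value in it still rests on WD levels that were not well above background, and Esr1 passed the filter only through the CD group. Leaving Esr1 aside, only Prlr was lower at that unadjusted threshold.

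Luminal epithelial cells are the cells that carry these steroid receptors in the gland. All 8 luminal epithelial marker genes were kept, and 7 of them had lower means in WD tumours. Their summed level, in units of the 75th percentile, was 465 to 721 in WD tumours and 509 to 664 in CD tumours, and none was at background throughout. Most of that sum is Krt18, the 1 marker that was not lower (8.62 in WD tumours and 8.58 in CD tumours, difference 0.04). The lowest p values were those of the keratin genes Krt19 (5.15 ± 0.60 in WD tumours and 6.26 ± 0.71 in CD tumours, SD, n = 5 each; limma, difference -1.11, adjusted p = 0.213) and Krt8 (difference -0.96, adjusted p = 0.232). The mean luminal marker level, which weighs its genes equally, was 4.34 to 4.79 in WD tumours and 4.82 to 5.30 in CD tumours. CD5 had no value for Cldn3, a gene at 1.83 to 3.29 in the other tumours. Its mean is over the remaining genes and is not like for like. Every WD tumour lay below CD1 to CD4 on this mean level. The separation was not checked on the genes with a value in every tumour. As computed, CD5 included, the mean level differed by -0.50 between the groups. With it as a covariate, added after the data were seen, differences were -0.73 for Esr1, -0.95 for Pgr, -0.50 for Prlr, 0.01 for Wnt4, 0.23 for Stat5a and -0.45 for Stat5b, and 0 of the 6 had an unadjusted p under 0.05 in limma (lowest 0.064, for Pgr), beside 1.5% of all genes lower by that rule. The covariate as used, with CD5 averaged without Cldn3, separates the groups narrowly, and only with Cldn3 counted in the other tumours. Luminal level and maternal diet therefore cannot be told apart in that fit. The SE of Pgr was 0.46 with the covariate and 0.26 without.

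Other cell types were represented as well. Of the 8 basal and myoepithelial markers 6 were kept, 4 of them lower in WD tumours, with summed levels of 60.0 to 87.4 in WD tumours and 58.0 to 91 in CD tumours. The largest gaps in that list were in the smooth muscle genes Cnn1 (-1.05) and Myh11 (-1.52), and the oxytocin receptor gene Oxtr was not well above background on any array. All 8 fibroblast markers were higher, with summed levels of 68.1 to 231 in WD tumours and 51.9 to 152 in CD tumours. The 4 kept T cell markers of 6 were higher, with summed levels of 10.8 to 34.3 in WD tumours and 7.41 to 13.6 in CD tumours, Zap70 by 1.03 and Cd3g by 1.05 (limma, adjusted p = 0.207 for both). All 5 kept macrophage markers of 6 were higher, with summed levels of 31.1 to 91.6 in WD tumours and 29.2 to 55.0 in CD tumours, and all 5 mast cell markers were lower, with summed levels of 1.45 to 13.8 in WD tumours and 5.50 to 22.7 in CD tumours. Of the endothelial markers 2 of 5 were kept and both were higher, and of the skeletal muscle markers 1 of 4, Myh2. No adipocyte or B cell marker was kept, and the adipocyte genes Lep and Cidec were not well above background on any array. The part of these other cells in the lower receptor levels was not tested.

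**Figure D3:**
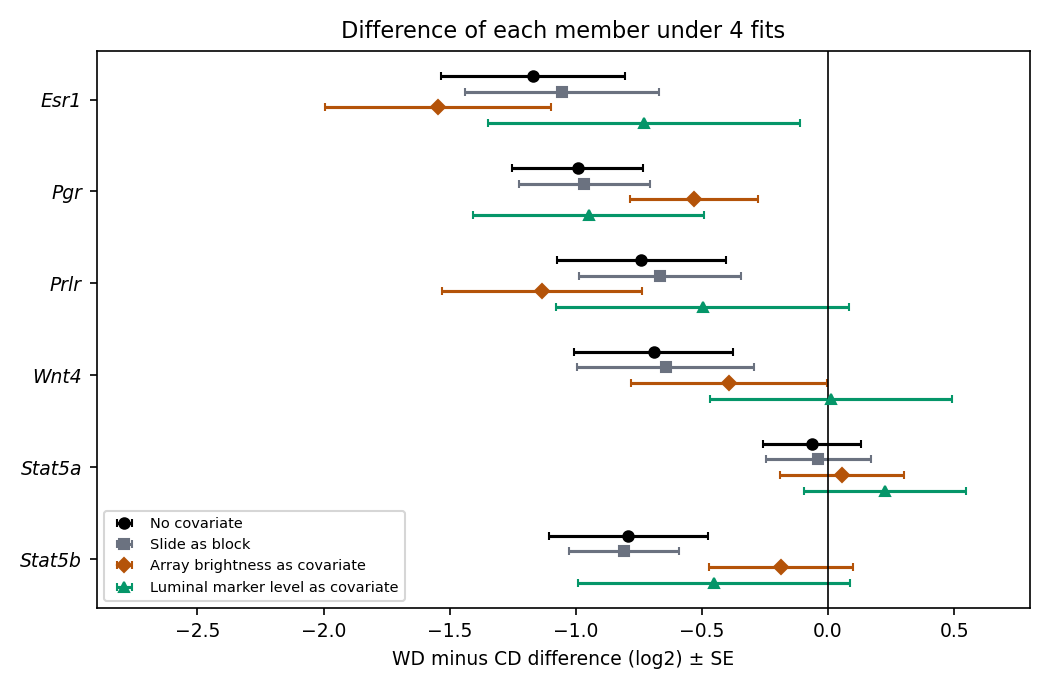
Difference between WD and CD tumours (log2, WD minus CD) for the 6 kept genes, with SE bars, in 4 limma fits: no covariate, slide as a block, array brightness as a covariate and luminal marker level as a covariate. Slide leaves the values nearly in place (Pgr -0.99 and -0.97), brightness moves Stat5b to -0.19 and Esr1 to -1.55, and the luminal covariate moves Wnt4 to 0.01.

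Relations between the 6 genes across the 10 tumours were computed for all 15 pairs, of which 7 belong to the 12 pairs first listed and 8 were added once it was known which genes were kept. The sign of r was positive for 13 of the 15 pairs. By permutation of Pearson's r, 1 pair passed at an adjusted p under 0.05, and by Spearman's rho 0 did. That pair was Esr1 with Prlr (r = 0.92, permutation p = 0.00013, adjusted p = 0.00195; rho = 0.77, p = 0.0118, adjusted p = 0.0885). WD1 and WD5 were the lowest WD tumours for both genes, but the WD levels of Esr1 are too dim to order these tumours reliably. Without WD1 and CD4, the tumours farthest from the median Esr1 level, r was 0.84. It was 0.89 with the group means subtracted, 0.97 with the slide means subtracted and 0.93 after regression on brightness. The Esr1 side of the relation includes 5 WD values that were not well above background. With normexp background correction and 75th percentile scaling r was -0.01, with quantile scaling of such values 0.78 (adjusted p = 0.0832), and for the authors' deposited table r was 0.79 (adjusted p = 0.0656), each by permutation.

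Pgr and Stat5b, the pair that each followed brightness, had r = 0.77 with each other (permutation p = 0.00876, adjusted p = 0.0657; rho = 0.82, p = 0.0058, adjusted p = 0.087). After regression on brightness that r was 0.15. Pgr and its mediator Wnt4 had r = 0.58 (permutation p = 0.0791, adjusted p = 0.282; rho = 0.71, p = 0.0268, adjusted p = 0.134). A single tumour, WD3, which had the lowest Pgr level and the highest Wnt4 level of the WD group, held that value down. Without WD3 r was 0.96 (adjusted p = 0.00045, permutation), but WD3 was singled out for lying off the relation. With any other single tumour left out r was 0.49 to 0.60. With all 10 tumours it was 0.26 with the group means subtracted and 0.17 after regression on brightness. Esr1 and Pgr, receptor and classical target, had r = 0.46 (permutation p = 0.181, adjusted p = 0.340; rho = 0.61, p = 0.0685, adjusted p = 0.206), and -0.21 with the group means subtracted. Prlr showed no relation to the STAT5 genes that could be told from 0, with r = 0.014 for Stat5a and -0.10 for Stat5b (adjusted p = 0.970 and 0.913, permutation). With the group means subtracted the value for Prlr and Stat5b was -0.71 (adjusted p = 0.133, permutation), and with the slide means subtracted it was 0.21. Stat5a and Stat5b had r = 0.22 (adjusted p = 0.743, permutation).

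**Figure D4:**
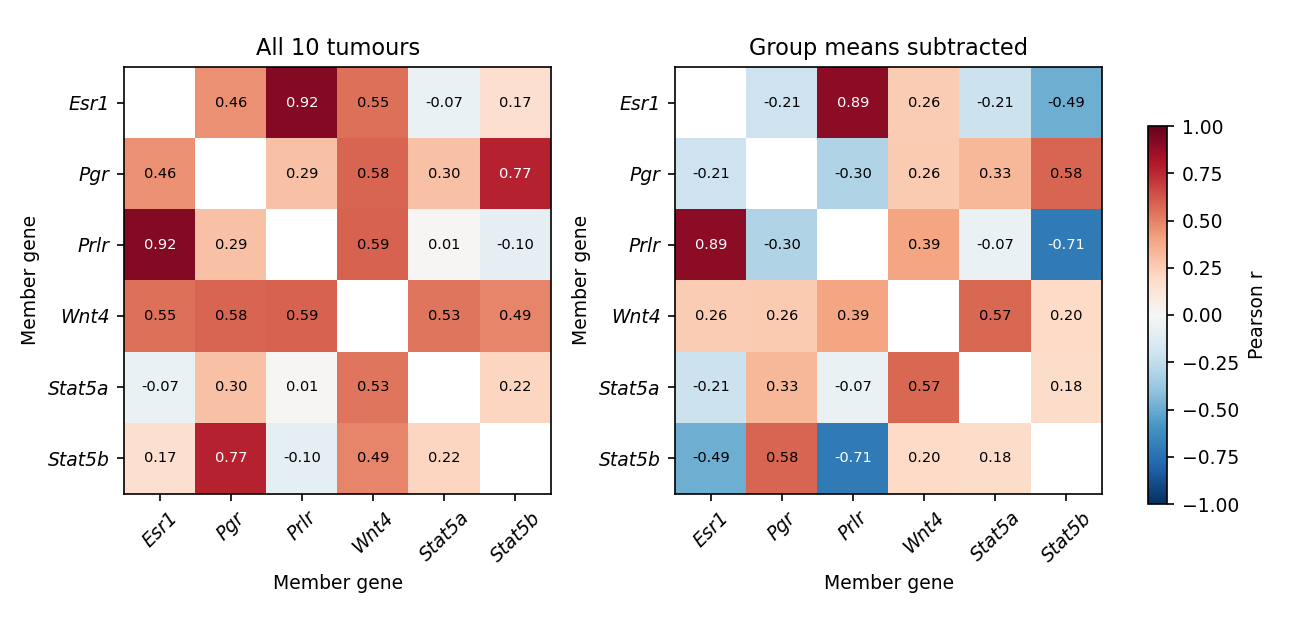
Pearson r between the levels of the 6 kept genes over 10 tumours, as measured (left) and with the group means subtracted (right), with the colour giving sign and size. Esr1 and Prlr keep a high value in both panels (0.92 and 0.89), Pgr and Stat5b stand at 0.77 and 0.58, and Prlr and Stat5b stand at -0.10 and -0.71.

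As a description, symbol-bearing genes outside the list with the highest r to each gene were sought among 8252 genes over the 10 tumours, where so many candidates over so few tumours make high values common. Pgr was most like Tmed1 (r = 0.98), the tyrosine kinase gene Src (0.97) and Tatdn3 (0.95). Stat5b was most like the thyroid hormone receptor gene Thra (0.98) and Pigq (0.98). These 5 neighbours of Pgr and Stat5b were all lower in WD tumours, by -0.72 to -0.35. Prlr was most like the sulfotransferase gene Sult2b1 (0.94), Ube2e2 (0.93) and Copg2 (0.92), and Esr1 like Nipa1 (0.93) and Bri3 (0.91). The Esr1 ranking includes WD levels that were not well above background on any WD array. Wnt4 was most like Scnn1a, a subunit gene of the epithelial sodium channel (0.96), Plekha4 (0.95) and the glypican gene Gpc3 (0.93), and all 3 were lower by -0.72 to -0.68. Stat5a was most like Fmr1 (0.90), Spart (0.90) and Dus3l (0.88). With the group means subtracted these values lay between 0.83 and 0.97.

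The other genes of the pathways lay on both sides of 0. In 6 lists of 121 genes, 101 had a probe and 71 were kept. Of the 71, 34 had lower and 37 higher means in WD tumours, with a median difference of 0.01, the same as that of all genes. None passed at an adjusted p under 0.05, and at an unadjusted p under 0.05 there were 3 lower (4.23%, beside 7.72% of all genes) and 2 higher (beside 7.8% of all genes). For 0 of the 71 did the groups separate, beside 3.65% of all genes.

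Nuclear receptors and their coregulators gave 17 kept genes of 26, with 7 lower and 10 higher. At an unadjusted p under 0.05 in limma 0 were lower and 1 was higher. Among those with a larger p were Pgrmc2, a membrane progesterone-binding protein gene (-0.37), the coactivator gene Ncoa2 (0.36) and the orphan receptor gene Esrra (0.22). The second estrogen receptor gene, Esr2, was not well above background on any array, and the pioneer factor gene Foxa1 was not kept.

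Of 22 estrogen target genes 11 were kept, 6 lower and 5 higher, and 0 had an unadjusted p under 0.05 in limma. Their median difference was -0.03. The 4 of smallest p were Myc (0.45), the cyclin D1 gene Ccnd1 (-0.42), the zinc transporter gene Slc39a6 (0.36) and the chemokine gene Cxcl12 (0.24). Areg, the epidermal growth factor family ligand that mediates estrogen action in the duct, was 6.02 ± 0.76 in WD tumours and 6.18 ± 0.44 in CD tumours (SD, n = 5 each), and was picked out here after its values were seen. The differences of these target genes lay on both sides of 0. Pgr, a classical target counted among the members and not in this list, was lower (-0.99). The direction of Esr1 was set by the filter, so these differences were not set against it.

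All 20 genes of prolactin receptor signalling had a probe, and 14 were kept, 8 lower and 6 higher. The kinase gene Akt1 was 1.20 ± 0.39 in WD tumours and 1.89 ± 0.38 in CD tumours (SD, n = 5 each), 1.62-fold lower (limma, unadjusted p = 0.012, adjusted p = 0.215). After it came Bcl6, a repressor that competes with STAT factors at their sites (0.74), the phosphatase gene Ptpn6 (0.34) and the adaptor gene Grb2 (-0.37). The feedback inhibitor genes Cish, Socs1, Socs2 and Socs3 and the hormone genes Prl and Gh1 were not kept. The milk genes that STAT5 induces gave 6 kept of 10, 4 lower and 2 higher, with 0 at an unadjusted p under 0.05 in limma. Their spread between tumours was wide. The casein gene Csn1s1 was 2.43 ± 3.75 in WD tumours and 3.54 ± 2.09 in CD tumours (SD, n = 5 each), a difference of -1.10 (SE 1.62), Glycam1 differed by -0.79, Csn2 by 0.52 and Xdh by 0.25.

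Of 28 genes of RANK, Wnt and calcitonin receptor signalling 17 were kept, 6 lower and 11 higher. Ramp1, which pairs with calcitonin family receptors at the cell surface, was 2.38 ± 0.80 in WD tumours and 1.27 ± 0.46 in CD tumours (SD, n = 5 each), 2.15-fold higher (limma, unadjusted p = 0.011, adjusted p = 0.212). The beta-catenin gene Ctnnb1 was 1.30-fold lower (-0.38, unadjusted p = 0.0439, adjusted p = 0.309), and the Wnt target gene Axin2 differed by 0.75 and Calca, which encodes calcitonin, by 0.50. The RANK gene Tnfrsf11a, whose product binds Tnfsf11, had no matched probe. Of 15 genes of steroid synthesis and metabolism 6 were kept, 3 lower and 3 higher. Srd5a1, a steroid 5-alpha-reductase gene, was -1.88 ± 0.82 in WD tumours and -0.87 ± 0.53 in CD tumours (SD, n = 5 each), 2.02-fold lower (limma, unadjusted p = 0.023, adjusted p = 0.257). Hsd17b1 differed by 0.38 and Cyp1b1 by -0.55. With array brightness as a covariate 0 of the 71 genes had an unadjusted p under 0.05 in limma, beside 5.74% of all genes.

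**Figure D5:**
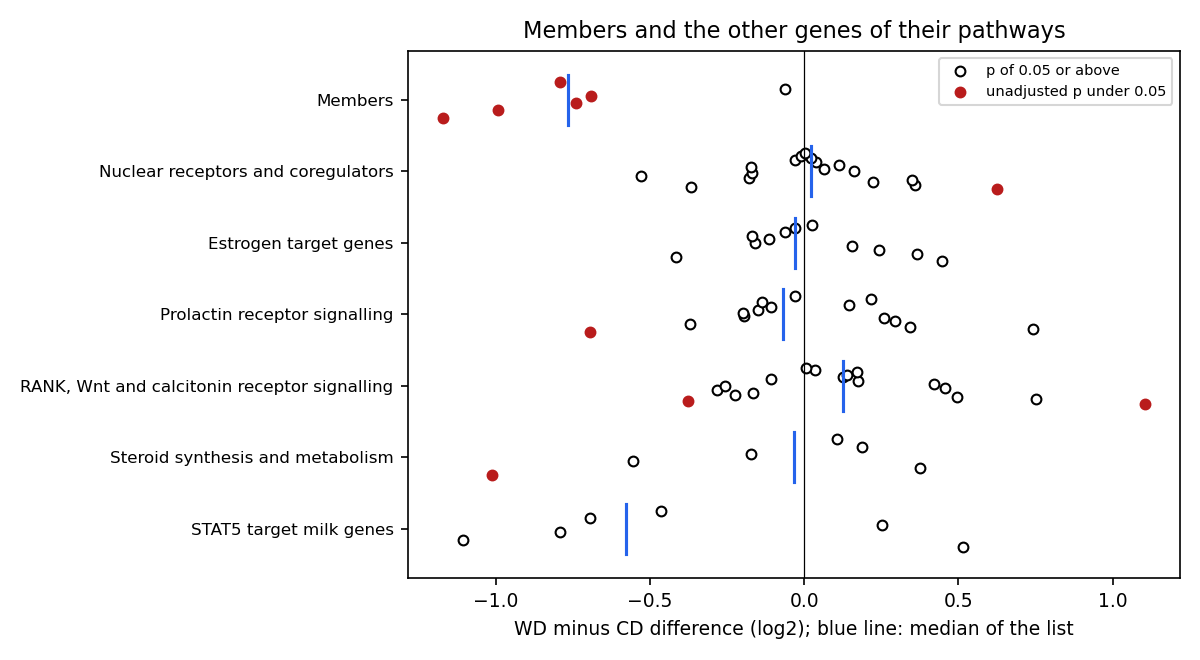
Difference between WD and CD tumours (log2, WD minus CD) for each kept gene, by list, with the 6 receptor and mediator genes at the top and filled red points for an unadjusted p under 0.05. The blue line is the median of the list, -0.77 at the top and between -0.58 and 0.12 for the 6 pathway lists, which spread to both sides of 0.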

How the data were processed

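RNA of 10 tumours was measured on 10 Agilent arrays, read by the authors with Feature Extraction 11.5.1.1 per the file headers and 15.5 per the submitters' processing notes. The deposited array files give background-subtracted intensity per spot and marks of 0 or 1 for spots well above background or outlying. The deposited series matrix holds the authors' log2 values, whose order on each array was that of its median spot intensity (Spearman correlation 1); their scaling is inferred from the values. Outlier spots were left out, spots of a probe averaged, and each gene was represented by its kept probe of highest mean level. RefSeq transcripts named 17502 of 41012 probes. No array spot was saturated.

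Groups were compared with limma 3.58.1 (R 4.3.3, data.table, version 1.17.8), differences WD minus CD, Benjamini-Hochberg over 16778 genes, tested on simulated data. Correlations used 100000 permutations (scipy 1.17.1, numpy 2.4.6, pandas 2.3.3, Python 3.11.15, matplotlib 3.10.9). Normexp (offset 50) used median spot signals, as the scanner output held no mean spot signals, which departs from the alternative first planned. Array numbers limit the precision.

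The members and lists were chosen with earlier results of these data known. Named genes are every member, the 4 smallest p of each pathway list, 2 of the luminal, basal and T cell lists, and 3 nearest genes per member; some genes this rule picks are not reported here. Alternatives were other background corrections, scalings and filters, slide and replicate blocks, brightness and luminal covariates, and leaving out each tumour.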

Additional observations from a re-analysis of the deposited data

Results flagged for a closer look

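CD3 was a dim array among bright ones. The log2 of its 75th percentile of intensity was 6.41, where the other 4 CD arrays lay between 7.56 and 7.82, and the gap was 0.815 of the range of the group. Of 14 sets of 5 values tested in this way 1 stood out. Chance flags about 1 set in 20, so 1 among 14 is about what chance would give. Without CD3 the differences between WD and CD tumours were -1.11 for Pgr, -0.88 for Wnt4 and -1.0 for Stat5b, larger than with it. They were -1.17 for Esr1, -0.70 for Prlr (unadjusted p = 0.0856 in limma) and -0.07 for Stat5a.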

How the results depend on the processing

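In limma 0 of the 6 kept genes and 0 genes of the array passed at an adjusted p under 0.05 under any alternative run. Esr1, Pgr, Prlr and Stat5b were lower in WD tumours in all of them, except that Esr1 was not kept when a probe had to be well above background on all 10 arrays. Wnt4 was lower except with the luminal marker covariate (0.0117). Stat5a reversed with brightness (0.0555) or the luminal level (0.228) as a covariate, within slide 1 (0.0415) and within slide 3 (0.45), and lay between -0.155 and 0.0603 when single tumours were left out. Esr1, whose place was set by the filter, is among the 5 genes lower at an unadjusted p under 0.05. Their count stood beside 1295 of all 16778 genes. It was 2 with normexp and 75th percentile scaling (beside 156 of all genes), 3 without a filter on dim probes (1058 of 36061), 3 with slide as a block (1310, with Prlr and Wnt4 no longer counted), 2 with brightness (499) and 0 with the luminal level as a covariate (251). Leaving out single tumours gave 2 to 4 (918 to 1527 of all genes), with 2 without CD1, CD2 or CD4, and 3 without WD1, WD4 or CD5. When single tumours were left out the differences were -1.33 to -0.88 for Esr1, -1.16 to -0.79 for Pgr, -0.93 to -0.43 for Prlr, -0.88 to -0.47 for Wnt4 and -1.0 to -0.61 for Stat5b. Without the filter on dim probes the median difference of all genes was 0.34. With brightness as a covariate the lists of prolactin signalling, of RANK, Wnt and calcitonin signalling and of steroid metabolism each had 0 genes lower at an unadjusted p under 0.05 in limma, against 1 each without it.

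Same-numbered tumours of the groups did not deviate together (r -0.02 to 0.16, and no tumour correlated best with its own number), so no pairing by number was seen. With the replicate block the differences were the same, such as -0.99 for Pgr (unadjusted p = 0.000399, adjusted p = 0.217), 4 genes were lower at an unadjusted p under 0.05, and 0 passed.

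The count of 1 called pair was 0 under both normexp settings and in the authors' deposited table, and 1 to 2 when single tumours were left out (2 without WD1 or WD3). Signs of r turned for Prlr and Stat5b with normexp and quantile scaling (0.0225), normexp and 75th percentile scaling (0.14), the authors' deposited table (0.018) and slide means subtracted (0.21). With normexp and 75th percentile scaling they also turned for Esr1 with Pgr (-0.22), Prlr (-0.01), Wnt4 (-0.21) and Stat5b (-0.11). With group means subtracted they turned for Esr1 with Pgr (-0.21) and Stat5b (-0.49), and for Prlr with Pgr (-0.30) and Stat5a (-0.0657). After regression on brightness they turned for Stat5b with Esr1 (-0.0236), Wnt4 (-0.0788) and Stat5a (-0.076). Prlr with Stat5a was also negative with percentiles over probes seen on all arrays (-0.0915), with quantile scaling (-0.0384) and with slide means subtracted (-0.14). With single tumours left out r ran from -0.41 to 0.21 for Prlr and Stat5a, -0.0248 to 0.614 for Pgr and Prlr, -0.0839 to 0.389 for Stat5a and Stat5b, and -0.39 to 0.19 for Esr1 and Stat5a. The causes of these shifts were not tested. Signal over background limits Esr1, Tnfsf11 and Calcr.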
